A study of Mus musculus with 8 samples.

Results

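The effect of deleting Calhm2 in a mouse model of Alzheimer's disease (AD) was read from 4 of the 8 libraries of an RNA-seq series on microglia isolated from brain. The libraries compared were the 2 of WT/AD mice, which carry the disease with an intact Calhm2 gene, and the 2 of cKO/AD mice, which carry the disease and a conditional knockout of Calhm2. All mice were of strain C57BL/6 and 6 months old, and the disease was present in both groups. The AD model and the driver of the conditional deletion are not named in the labels. The remaining 4 libraries, of WT and cKO mice without the disease, entered the fit for the spread between libraries and the comparison of the deletion effect with and without AD. All 55421 genes of the table were considered, and 22089 had enough counts to be tested. Whether both libraries of a group are from different animals is not stated; the p-values below therefore reflect variation among these libraries only, part of which may be technical.

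Microglia are the resident macrophages of the brain. Around amyloid plaques they take up a disease-associated state, in which the lipid receptor Trem2 signals through the adaptor Tyrobp and genes for lysosomal proteases, lipid carriers and secreted factors are raised, while homeostatic genes such as P2ry12, Tmem119 and Cx3cr1 are lowered. Calhm2 encodes a large-pore channel of the calcium homeostasis modulator (CALHM) family, which passes ions and small molecules such as ATP across the plasma membrane.

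The WT/AD libraries held 25436631 and 25774587 counts, and the cKO/AD libraries 20188506 and 22416026. The first cKO/AD library stood apart: 18693 genes had a count there, while the other library of its group had 22088 and those of WT/AD 24848 and 24452, and mitochondrially encoded genes took 4.73% of its counts, against 2.37% in the second and 2.30% and 2.12% in WT/AD. The 2 libraries of WT/AD correlated across genes at r = 0.945 in log2 CPM (counts scaled to the library size) and those of cKO/AD at r = 0.843, with an SD of the replicate difference of 1.03 and 2.07 on the log2 scale. Microglia markers were abundant in every library: 15 of them summed to 51662 and 48699 CPM in WT/AD and 21939 and 30206 CPM in cKO/AD, and none of them was at 0.

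Calhm2 itself was at 16.4 and 13.7 CPM in WT/AD against 2.498 and 1.56 CPM in cKO/AD. Both cKO/AD libraries lay below both WT/AD libraries, and the gene fell (log2 fold change -2.89, SE 0.495, edgeR adjusted p = 0.01003). Its log2 fold change was -2.32 with GC content corrected (adjusted p = 0.0466). The correction, described next, left this call close to the threshold: of 4 forms of it, Calhm2 passed in 2 and had an adjusted p of up to 0.0582 in the others. It did not pass with the loess form and a replicate block (adjusted p = 0.0589) or in voom with a weight for each group (adjusted p = 0.0903). With the 4 libraries of AD mice alone (adjusted p = 0.104), or with either WT/AD library left out, it did not pass.

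The difference between the groups followed the base composition of the transcripts. GC content, the share of G and C bases, was taken from the longest protein-coding transcript of each gene. In the 10% of genes with the lowest GC content (21.8% to 40.2%) the median log2 fold change of cKO/AD over WT/AD was 0.78, 14.9% of genes rose and 1.27% fell. In the 10% with the highest GC content (57.6% to 78.3%) the median was -1.77, 0.408% of genes rose and 39.9% fell. Single libraries showed this. In the 10% of genes richest in GC the median deviation from the mean of the 8 libraries was 0.94 and 0.70 on the log2 scale in the WT/AD libraries, against -1.56 and -0.63 in the cKO/AD libraries. In the 10% poorest in GC it was -0.36 and -0.30 against 0.33 and 0.29. Across genes, which are not independent replicates, fold change and GC content correlated at r = -0.322 in AD mice and at r = -0.066 for cKO against WT without AD.

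**Figure D1:**
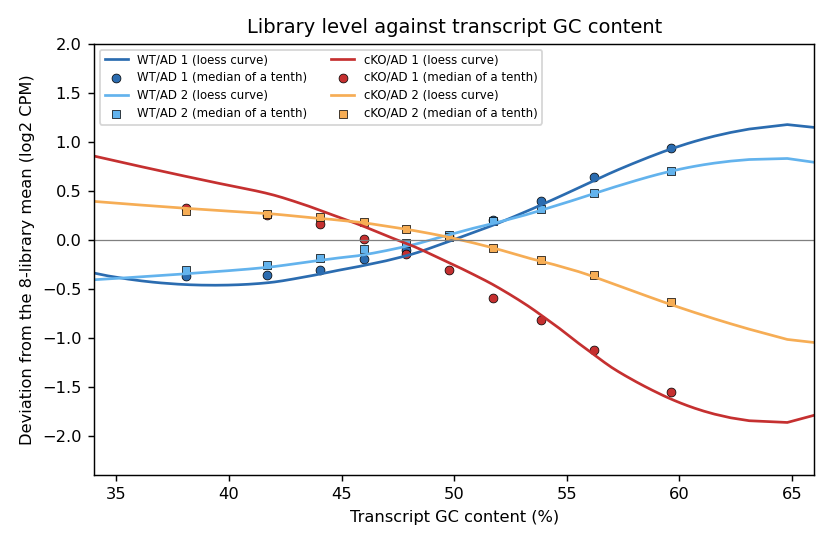
Deviation of each library from the mean of the 8 libraries (log2 CPM, y axis) against transcript GC content (%, x axis). Lines are loess curves and points are medians of 10% of the genes each. Among the genes richest in GC the WT/AD libraries climb to 0.94 and 0.70 and the cKO/AD libraries drop to -1.56 and -0.63.

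The scale of the composition difference can be seen in the genes themselves. The central 90 coding bases of 4 genes the results turn on are shown from the GENCODE M21 transcripts (GRCm38, a later build than the mm9 named for the counts), 5′ to 3′, with G and C in capitals. Hells, which rose, has 37.7% GC over its whole transcript, Ctsl, which fell, 44.3%, Trem2, whose fall depended on the correction, 57.5%, and Apoe, whose direction turned with it, 59.5%. The stretches lie at bases 1187 to 1276 of 2463 coding bases in Hells (35.56% GC), 457 to 546 of 1002 in Ctsl (52.22%), 296 to 385 of 681 in Trem2 (63.33%) and 422 to 511 of 933 in Apoe (63.33%).
Hells: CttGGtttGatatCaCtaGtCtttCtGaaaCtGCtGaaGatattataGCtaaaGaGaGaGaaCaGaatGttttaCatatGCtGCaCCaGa
Ctsl: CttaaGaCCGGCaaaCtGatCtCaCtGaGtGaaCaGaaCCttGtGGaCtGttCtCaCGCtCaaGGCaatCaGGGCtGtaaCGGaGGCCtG
Trem2: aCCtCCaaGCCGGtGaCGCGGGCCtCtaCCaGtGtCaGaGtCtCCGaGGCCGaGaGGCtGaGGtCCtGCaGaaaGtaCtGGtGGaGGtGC
Apoe: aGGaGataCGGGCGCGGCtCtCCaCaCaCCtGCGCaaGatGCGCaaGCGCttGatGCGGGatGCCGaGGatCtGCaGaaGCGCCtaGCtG

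The comparison was therefore fitted a second time with a curve of each library on GC content taken out, and the genes described below as passing in both fits moved the same way past the threshold (edgeR, adjusted p of 0.05) with and without that correction. For these genes both libraries of one group also lay above both of the other in CPM and in GC-corrected CPM. Without correction 1728 genes rose (7.82% of those tested) and 2252 fell (10.2%), 3980 in all (18.0%), and the groups did not overlap in any of them. Over all genes tested, both cKO/AD libraries were above both WT/AD libraries in 24.3% and below in 35.1%. With correction alone 813 rose (3.68%) and 498 fell (2.25%). In both fits 539 genes rose (2.44%) and 425 fell (1.92%), 964 in all (4.36%), which is 31.2% of the uncorrected rises and 18.9% of the falls. Of the 964, 806 are protein coding, 853 reached 5 CPM in the higher group and 175 carry predicted-gene or clone names. The median GC content was 43.7% for uncorrected rises and 56.6% for falls, and 47.2% and 51.7% for the rises and falls of both fits, against 48.8% for all genes tested.

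**Figure D2:**
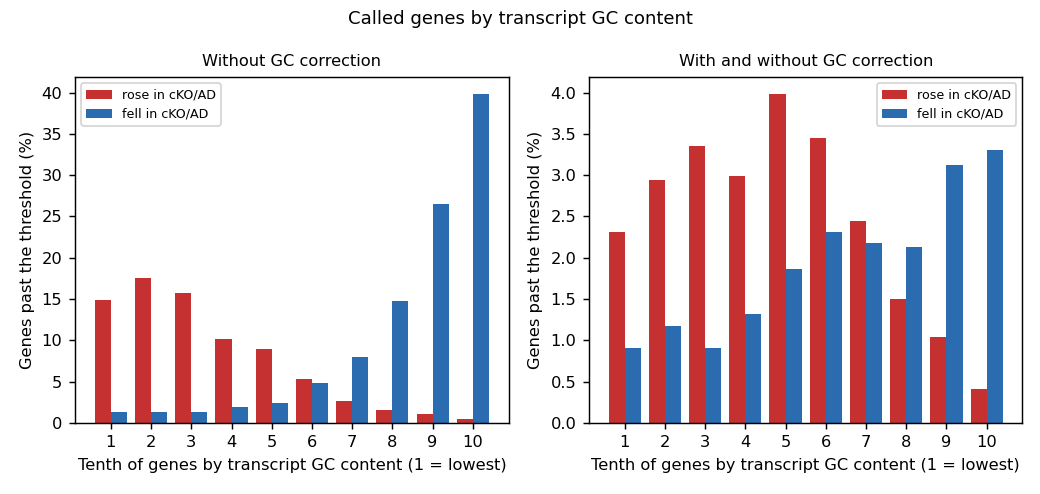
Share of genes past the threshold (%, y axis, on different scales in the 2 panels) in 10 equal groups of genes by transcript GC content (x axis). Without GC correction falls climb from 1.27% in the lowest group to 39.9% in the highest; past the threshold in both fits they go from 0.906% to 3.31%, and rises from 2.31% to 0.408%.

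These counts rest on few libraries. With the 4 libraries of AD mice alone edgeR called 0 genes, with a smallest adjusted p of 0.0901 and 5245 genes at an unadjusted p under 0.05, whereas DESeq2 on all 8 libraries called 2919 rises and 3517 falls. Voom with a weight for each group, which lets the spread differ between groups, called 1297 rises and 1037 falls, of which 458 and 50 held in both fits. Without WT/AD replicate 1 only the rise of Gm10800 and the fall of Slc25a22 were called, without WT/AD replicate 2 353 rises and 765 falls, and in neither case did a gene pass in both fits. Leaving out either cKO/AD library, also the one that stood apart, raised the numbers of calls. A refit of this kind leaves 1 library in a group, and that group then adds nothing to the estimated spread. The SD of the replicate difference was 2.07 in cKO/AD against 1.03 to 1.17 in the other groups. More calls without a cKO/AD library are therefore no measure of a stronger effect. Their numbers enter only the ranges over all omissions in the section on processing. Leaving out WT replicate 1 or 2 gave 946 and 1336 or 959 and 1340 calls, with 1 gene in both fits each time, and leaving out cKO replicate 1 or 2 gave 1141 and 1590 or 1192 and 1538, with 280 and 179 or 279 and 160 in both fits. In each of these 8 refits all 964 genes kept the sign of their fold change. These genes were chosen for groups that did not overlap, and the WT and cKO libraries do not enter the fold change. The kept signs were therefore all but fixed in advance and do not test the result.

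The first cKO/AD library lay farther from WT/AD than the second in most of the 964 genes. It was the higher of the pair in 476 of the 539 rises, with a median log2 ratio to the WT/AD mean of 2.05 against 1.44 (CPM plus 0.1), and the lower in 274 of the 425 falls, with a median of -3.41 against -2.52. Its low number of genes with a count and its high mitochondrial share accompany these values, and their part in the results was not tested. Of the genes taken by the naming rule that passed in both fits, these did not pass in at least 1 of 4 forms of the GC correction: Zim1, Dnase1l3, Cx3cr1, Mef2d, Bmpr2, Pdia3, Trpm7, Stim2, Ndufs1, Sdhc, Slc2a1, Rplp0, Rpl15, Psma3, Was, Zyx, Actr2, Zfp395, Egr3 and Picalm. The direction of Rplp0 turned in 1 of them (0.21 on the log2 scale). Bhlhe41, Irf5, Tmsb4x, Tubb5, Zfp36 and Zfp36l1, named below outside the rule, were set against the loess form alone.

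Among the largest falls were genes that were nearly silent in cKO/AD. Vwa7, which encodes a von Willebrand factor A domain protein, had 554 counts in the WT/AD libraries together and 0 in both cKO/AD libraries, a level at least 147-fold lower when 3 counts over the group are taken as the limit of a count of 0. Fam222a had 410 and 0 counts (at least 109-fold), Lrrc29 342 and 0 (at least 90.5-fold), Col17a1, a transmembrane collagen gene, 335 and 0 (at least 88.7-fold), Slc52a3, a riboflavin transporter gene, 290.0 and 0 (at least 76.7-fold) and Lrrn4cl 282 and 0 (at least 74.6-fold). Their edgeR adjusted p lay between 0.00673 (Slc52a3) and 0.01503 (Col17a1), and between 0.0208 and 0.0412 with GC content corrected. Levels of these 6 genes in the WT/AD libraries ran from 4.45 CPM (Lrrn4cl) to 14.1 CPM (Vwa7). The bounds are on uncorrected CPM, and bounds on the GC-corrected scale were not computed. In GC-corrected CPM the WT/AD levels were lower in all of them but Lrrn4cl. Fam222a was at 4.27 and 4.11 against 9.10 and 7.17 CPM uncorrected, and Lrrn4cl at 4.73 and 6.76 against 4.45 and 6.73. Of the 964 genes 100 had 0 counts in both libraries of a group, as had 1748 of all 22089 genes tested.

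Other large falls left 1 to 3 counts in cKO/AD. Hps6, which encodes a subunit of a complex for the biogenesis of lysosome-related organelles, had 1005 counts in WT/AD and 1 in cKO/AD, a ratio of 798 (95% exact interval 143 to 31546, counting error only). The zinc finger factor genes Egr4 and Klf11 had 951 and 1 and 555 and 3 counts, ratios of 755 (135 to 29852) and 147 (49.997 to 714). Ngfr, the low-affinity neurotrophin receptor gene, had 522 and 1 counts, and Frat2, which encodes an inhibitor of the kinase GSK3, 388 and 1. Pcdhga6, a protocadherin gene of a cluster whose members share exons, had 343 and 2, and its count is uncertain for that reason. Adjusted p-values of these 6 lay between 0.00635 (Hps6) and 0.01003 (Ngfr), and between 0.0139 and 0.0338 with GC content corrected. Hps6, Egr4, Ngfr and Frat2 had no count in the first cKO/AD library and 1 in the second. The ratios are on uncorrected CPM. With GC content corrected the log2 fold change went from -9.36 to -7.70 in Hps6 and from -9.28 to -7.12 in Egr4. In Klf11 it was -7.07 on both scales.

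Among genes with established names and at least 5 CPM in the higher group, the largest rises included those of Sp8, Scgn and Hells. The predicted genes Gm10800 and Gm10801 had larger log2 fold changes (8.43 and 7.97). Sp8, a zinc finger transcription factor gene of the developing forebrain, was at 2.23 and 4.32 CPM in WT/AD against 70.3 and 43.5 CPM in cKO/AD (log2 fold change 4.12, SE 0.496, edgeR adjusted p = 0.00641). Scgn, which encodes the calcium-binding protein secretagogin, was at 0.358 and 0.396 CPM in WT/AD against 10.9 and 7.72 CPM in cKO/AD (log2 fold change 4.61, SE 0.772, edgeR adjusted p = 0.009698). Hells, a chromatin remodeller of the SNF2 family, was at 3.46 and 3.72 CPM in WT/AD against 80.9 and 27.2 CPM in cKO/AD (log2 fold change 3.91, SE 0.659, edgeR adjusted p = 0.009804). With GC content corrected their fold changes were 4.25, 4.49 and 2.94 (adjusted p = 0.0189, 0.0272 and 0.0295). In Hells the first cKO/AD library was about 3 times as high as the second.

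Ska3, a gene of the kinetochore complex that ties chromosomes to the spindle, went from 0.954 and 1.94 to 19.9 and 17.6 CPM between WT/AD and cKO/AD, and Bend4 from 2.34 and 3.37 to 29.6 and 21.1 CPM. Slc10a4, a vesicular transporter-like gene, went from 0.278 and 0.831 to 8.69 and 4.37 CPM, Dchs2, a cadherin gene, from 0.636 and 1.11 to 21.7 and 4.996 CPM, and the imprinted zinc finger gene Zim1 from 1.23 and 1.9005 to 42.7 and 8.88 CPM. That both cKO/AD libraries lay above the WT/AD libraries in each of these follows from how they were taken. In Zim1 and Dchs2 the first cKO/AD library was more than 4 times the second. More abundant genes rose too. Inpp4a, which encodes a phosphatase of phosphoinositides, went from 388 and 431 to 4607 and 1519 CPM (log2 fold change 2.903; 3.17 with GC content corrected), and Caml, which encodes a factor that inserts proteins into the endoplasmic reticulum membrane, from 55.2 and 54.6 to 648 and 221 CPM (2.98; 3.16). Dnase1l3, a secreted DNase gene of macrophages and dendritic cells, went from 2.19 and 1.82 to 18.2 and 13.8 CPM, and Ermap from 1.43 and 1.15 to 7.66 and 9.86 CPM. The adjusted p of these 9 genes lay between 0.00761 (Bend4) and 0.0273 (Slc10a4), and between 0.0236 (Bend4) and 0.0472 (Zim1) with GC content corrected.

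**Figure D3:**
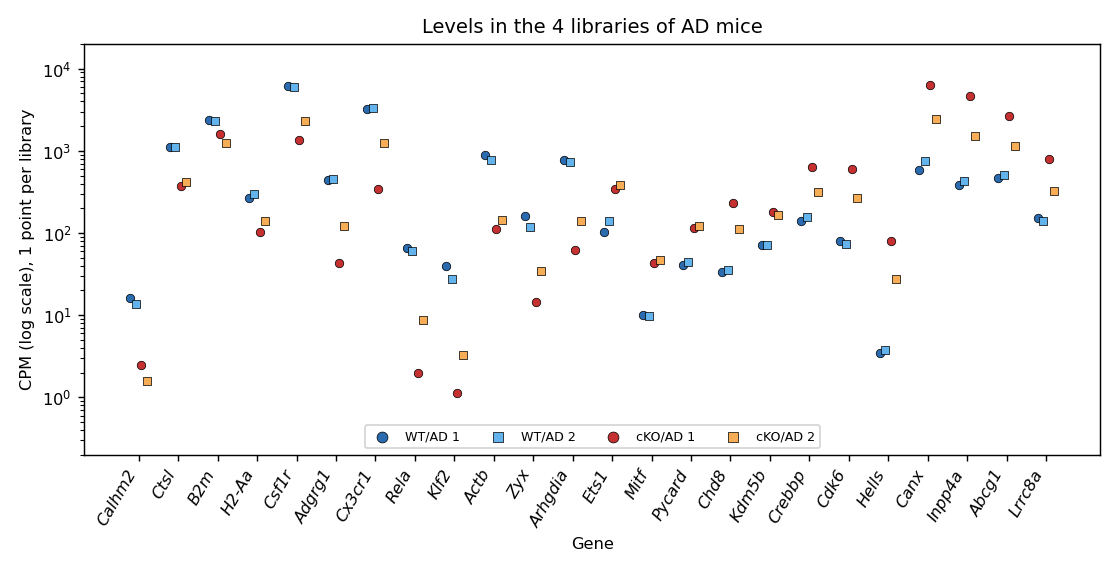
Levels (CPM, log axis) of 24 genes that passed in both fits, with 1 point for each of the 4 libraries of AD mice. Passing in both fits required that the libraries of the 2 groups do not overlap. Calhm2 and the genes from Ctsl to Arhgdia are lower in cKO/AD, and the genes from Ets1 to Lrrc8a are higher.

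A larger share of the genes of Trem2 signalling and of the disease-associated state than of all genes fell before GC correction, and few of them passed in both fits. Of 20 tested genes of Trem2 signalling 2 rose and 10 fell without GC correction (10% and 50%, against 7.82% and 10.2% of all genes tested), and 0 and 1 with it. None passed in both fits. The median log2 fold change was -0.98 against -0.14 over all genes tested (-0.27 corrected, against 0.00). Trem2 was at 246 and 239 CPM in WT/AD against 49.2 and 64.2 CPM in cKO/AD (log2 fold change -2.098, SE 0.236, edgeR adjusted p = 0.00635). Both cKO/AD libraries were far below both WT/AD libraries. With the loess correction its fold change was -0.503 (adjusted p = 0.191), and over 4 forms of the correction it ranged from -0.85 to -0.503 (adjusted p = 0.0429 to 0.191), negative each time and past the threshold in 1. The other uncorrected falls were the adaptor gene Tyrobp, the kinase genes Syk and Pik3cd, the phosphatase gene Inpp5d, and Card9, Dok3, Grb2, Pik3ap1 and Sh2b3. The rises were Adam10 and Adam17, genes of the sheddases that cleave Trem2 from the cell surface.

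Of 30 genes of the disease-associated state 1 rose and 11 fell without GC correction (3.33% and 36.7%, against 7.82% and 10.2% of all genes tested), and 2 and 2 with it. Ctsl and B2m fell in both fits, 6.67% of the list against 1.92% of all genes (list median -0.62, -0.49 corrected). Ctsl, the lysosomal protease cathepsin L, was at 1107 and 1109 CPM in WT/AD against 375 and 416 CPM in cKO/AD (log2 fold change -1.49, SE 0.184, edgeR adjusted p = 0.00642). It is a gene of low GC content, and its fold change grew to -1.998 with GC content corrected (adjusted p = 0.0139). B2m, the light chain of MHC class I, was at 2357 and 2304 CPM in WT/AD against 1585 and 1238 CPM in cKO/AD (log2 fold change -0.72, SE 0.1902, edgeR adjusted p = 0.03603; -1.496 corrected, adjusted p = 0.0155). In both genes the libraries of a group lay close together and the groups well apart. Ctsd, cathepsin D, was at 538 and 375 CPM in WT/AD against 107 and 130.1 CPM in cKO/AD (log2 fold change -1.95, SE 0.244, edgeR adjusted p = 0.00642), and with GC content corrected ranged from -0.95 to -0.58 over 4 forms, past the threshold in 2 (adjusted p = 0.0338 to 0.173). Cst7, a cystatin of lysosomal proteases, was at 550.4 and 514 CPM in WT/AD against 278 and 202 CPM in cKO/AD (log2 fold change -1.15, SE 0.326, edgeR adjusted p = 0.0463). With the loess correction it was at -0.95 (adjusted p = 0.143). Over 4 forms it ranged from -1.36 to -0.95, past the threshold in 1 (adjusted p = 0.0318 to 0.143).

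Apoe, the main lipid carrier of the brain, was at 4534 and 3644 CPM in WT/AD against 2364 and 2625 CPM in cKO/AD and fell without correction (log2 fold change -0.71, SE 0.188, edgeR adjusted p = 0.0365). With GC content corrected it rose (1.29, adjusted p = 0.0349). It was 1 of 10 genes past the threshold in opposite directions in the 2 fits, with Pdlim4, Rbfox3, Ptprn, Celf3, Adgrb2, Dapk3, Arf6, Ier2 and Dlgap4, all falls that turned to rises. Their transcripts have a GC content between 57.7% (Celf3) and 63.3% (Dapk3). Of 29 genes of amyloid processing and clearance 5 rose and 8 fell without GC correction (17.2% and 27.6%, against 7.82% and 10.2% of all genes tested). With it 4 rose and 1 fell (13.8% and 3.45%, against 3.68% and 2.25%). In both fits 1 rose, 3.45% against 2.44% of all genes. Picalm, an endocytic adaptor gene, alone rose in both fits (259.6 and 304 to 1297 and 734 CPM; log2 fold change 1.85, adjusted p = 0.0108; corrected 1.13, adjusted p = 0.0465).

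A larger share of lysosomal genes than of all genes fell before correction, and not with it. Of 45 genes 0 rose and 11 fell without GC correction (0% and 24.4%, against 7.82% and 10.2% of all genes tested), and 1 and 1 with it. The uncorrected falls included the cathepsin genes Ctsl, Ctsd and Ctsf, the proton pump subunit genes Atp6v0a1 and Atp6v0c, the progranulin gene Grn and the glycosidase genes Gaa, Neu1 and Man2b1. Ctsl alone passed in both fits, 2.22% of the list against 1.92% of all genes that fell (list median -0.31, -0.13 corrected). Of 30 autophagy genes 4 rose and 6 fell without GC correction (13.3% and 20%), and 2 and 2 with it. Atg12, a conjugation factor of the autophagosome membrane, rose in both fits (97.8 and 102 to 309.8 and 229 CPM; log2 fold change 1.43, adjusted p = 0.00742; corrected 0.91, adjusted p = 0.0334), and Pik3r4, a subunit of the lipid kinase complex that starts autophagosomes, fell (31.3 and 30.7 to 4.88 and 10.6 CPM; log2 fold change -1.997, adjusted p = 0.0187; corrected -1.44, adjusted p = 0.0499).

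The share of homeostatic microglia genes that fell was above that of all genes. Of 23 tested 1 rose and 8 fell without GC correction (4.35% and 34.8%, against 7.82% and 10.2% of all genes tested), and 1 and 5 with it. The median was -0.61 (-0.37 corrected). In both fits 1 rose and 3 fell, 4.35% and 13.04% against 2.44% and 1.92% of all genes. Csf1r, the receptor on which microglia depend for survival, was at 6197 and 6049 CPM in WT/AD against 1360.1 and 2288 CPM in cKO/AD (log2 fold change -1.75, SE 0.317, edgeR adjusted p = 0.0115). For Csf1r the corrected log2 fold change was -0.85 (adjusted p = 0.04502). Cx3cr1, the fractalkine receptor, was at 3196 and 3329 CPM in WT/AD against 347 and 1246 CPM in cKO/AD (log2 fold change -2.03, SE 0.519, edgeR adjusted p = 0.0327). For Cx3cr1 the corrected log2 fold change was -1.91 (adjusted p = 0.0447). Adgrg1, an adhesion receptor gene, was at 441 and 449.9 CPM in WT/AD against 42.9 and 120.2 CPM in cKO/AD (log2 fold change -2.45, SE 0.444, edgeR adjusted p = 0.0115). For Adgrg1 the corrected log2 fold change was -1.27 (adjusted p = 0.0304). In all 3 the first cKO/AD library was the lower one, in Cx3cr1 by more than 3 times. Nav3, a microtubule-binding protein gene, rose (134 and 123 to 306 and 283 CPM; log2 fold change 1.19, adjusted p = 0.00689; corrected 1.06, adjusted p = 0.02501).

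The microglia markers Tmem119 and P2ry12 went different ways on the 2 scales. Tmem119 was at 7953 and 7445 CPM in WT/AD against 1368 and 3697 CPM in cKO/AD and fell without correction (log2 fold change -1.604, SE 0.412, edgeR adjusted p = 0.0334), but was at 0.11 with it (adjusted p = 0.762). P2ry12, the ADP receptor of microglial processes, was at 4478 and 6049 CPM in WT/AD against 7233 and 7401 CPM in cKO/AD, with a fold change of 0.48 (adjusted p = 0.157) and -0.37 corrected (adjusted p = 0.2303). Neither passed in both fits. Of 30 complement and phagocytic receptor genes 1 rose and 8 fell without GC correction (3.33% and 26.7%, against 7.82% and 10.2% of all genes tested). With it 0 rose and 0 fell (against 3.68% and 2.25% of all genes). The uncorrected falls included the C1q chain genes C1qa, C1qb and C1qc, and none passed in both fits.

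Transcription factors of microglia were split. Of 31 genes 8 rose and 9 fell without GC correction (25.8% and 29%, against 7.82% and 10.2% of all genes tested), and 4 and 4 with it. In both fits 3 rose and 3 fell, 9.68% each against 2.44% and 1.92% of all genes. Mitf, a factor for lysosomal and phagocytic genes, was at 9.93 and 9.82 CPM in WT/AD against 42.6 and 46.4 CPM in cKO/AD (log2 fold change 2.17, SE 0.291, edgeR adjusted p = 0.00689). For Mitf the corrected log2 fold change was 1.57 (adjusted p = 0.0297). Ets1 was at 103 and 139 CPM in WT/AD against 347 and 379.7 CPM in cKO/AD (log2 fold change 1.58, SE 0.198, edgeR adjusted p = 0.00642). For Ets1 the corrected log2 fold change was 1.37 (adjusted p = 0.0189). Bhlhe41, a transcriptional repressor of macrophages, went from 159 and 196 to 665 and 423 CPM (log2 fold change 1.62, adjusted p = 0.00873; corrected 1.44, adjusted p = 0.02804). In Mitf and Ets1 the 2 cKO/AD libraries lay close together.

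The falls were those of Mef2d, Klf2 and Irf5. Mef2d, a MADS box factor gene, was at 110.5 and 109.8 CPM in WT/AD against 16.4 and 22.6 CPM in cKO/AD (log2 fold change -2.497, adjusted p = 0.00691; corrected -1.45, adjusted p = 0.0327). Klf2, a factor that restrains myeloid activation, was at 39.9 and 27.7 CPM in WT/AD against 1.14 and 3.26 CPM in cKO/AD (log2 fold change -3.93, adjusted p = 0.00722; corrected -1.85, adjusted p = 0.0295). Irf5, a factor downstream of Toll-like receptors, went from 169 and 144 to 20.8 and 50.1 CPM (log2 fold change -2.14, adjusted p = 0.01202; corrected -1.05, adjusted p = 0.03701). Spi1, Cebpa, Cebpb, Irf8 and Tfeb fell without correction and did not pass in both fits. Of 21 genes of TGF-beta signalling, the pathway that maintains homeostatic microglia, 2 rose and 1 fell without GC correction, and 4 and 0 with it. Without correction these are 9.52% and 4.76%, against 7.82% and 10.2% of all genes tested. In both fits 2 rose, 9.52% against 2.44% of all genes. Skil, which encodes a repressor of SMAD factors, was at 196 and 222 CPM in WT/AD against 2483 and 763 CPM in cKO/AD (log2 fold change 2.96, adjusted p = 0.01005; corrected 2.14, adjusted p = 0.0309), and Bmpr2, a type II receptor of bone morphogenetic proteins, at 111 and 113 CPM in WT/AD against 927 and 316 CPM in cKO/AD (log2 fold change 2.47, adjusted p = 0.01197; corrected 1.65, adjusted p = 0.0454).

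Antigen presentation genes fell more often than they rose before correction, and equally often with it. Of 24 genes 2 rose and 7 fell without GC correction (8.33% and 29.2%, against 7.82% and 10.2% of all genes tested), and 3 and 3 with it. The median was -0.48 without correction and 0.36 with it, positive in 15 members and negative in 9. In both fits 1 rose and 3 fell, 4.17% and 12.5% against 2.44% and 1.92% of all genes. H2-Aa, an MHC class II chain, was at 269.6 and 298 CPM in WT/AD against 104 and 141 CPM in cKO/AD (log2 fold change -1.21, SE 0.205, edgeR adjusted p = 0.00981). For H2-Aa the corrected log2 fold change was -0.92 (adjusted p = 0.02699). Nlrc5, the transactivator of MHC class I genes, was at 7.03 and 6.57 CPM in WT/AD against 0 and 0.223 CPM in cKO/AD, with no count in the first cKO/AD library (adjusted p = 0.0162; 0.0349 corrected). B2m, above, was the third of them. Pdia3, a chaperone of the MHC class I loading complex, rose (1561 and 2272 to 3767 and 3998 CPM; log2 fold change 1.02, adjusted p = 0.0203; corrected 0.76, adjusted p = 0.0476). H2-D1, H2-K1, H2-Eb1 and Tap2 fell without correction alone.

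The shares of interferon and inflammatory genes called were near those of all genes, and single members passed in both fits. Of 35 type I interferon response genes 3 rose and 3 fell without GC correction (8.57% and 8.57%, against 7.82% and 10.2% of all genes tested), and 0 and 1 with it. Ifnar2, a subunit of the interferon receptor, fell in both fits (85.2 and 94.03 to 8.74 and 31.05 CPM; log2 fold change -2.17, adjusted p = 0.0234; corrected -2.02, adjusted p = 0.0353). Of 38 genes of NF-kappaB, Toll-like receptor and inflammasome signalling 2 rose and 5 fell without GC correction (5.26% and 13.2%), and 1 and 1 with it. Rela, the p65 subunit of NF-kappaB, was at 65.6 and 60.8 CPM in WT/AD against 1.99 and 8.83 CPM in cKO/AD (log2 fold change -3.53, SE 0.628, edgeR adjusted p = 0.0108). For Rela the corrected log2 fold change was -1.84 (adjusted p = 0.0342). Pycard, the adaptor that assembles inflammasomes, was at 40.9 and 45.02 CPM in WT/AD against 115 and 122 CPM in cKO/AD (log2 fold change 1.46, SE 0.235, edgeR adjusted p = 0.00876). For Pycard the corrected log2 fold change was 1.06 (adjusted p = 0.03305). The 2 cKO/AD libraries lay close together in Pycard and apart in Rela. Of 34 cytokine and chemokine genes 1 rose and 5 fell without GC correction (2.94% and 14.7%), and 1 and 1 with it. None passed in both fits. Their corrected median was -0.44, negative in 26 members and positive in 7, against 0.00 over all genes tested. The corrected median was -0.30 in the NF-kappaB list (23 negative, 15 positive) and 0.24 in the interferon list (13 negative, 22 positive).

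Calcium handling genes rose more often than they fell. Of 45 tested 11 rose and 4 fell, 24.4% and 8.89% against the 7.82% and 10.2% of all genes, with a median of 0.24 (0.24 corrected). With GC content corrected 4 rose and 0 fell. In both fits 3 rose, 6.67% against 2.44% of all genes. Canx, the calcium-binding chaperone calnexin of the endoplasmic reticulum, was at 587 and 757 CPM in WT/AD against 6323 and 2449 CPM in cKO/AD (log2 fold change 2.71, SE 0.4203, edgeR adjusted p = 0.00832). For Canx the corrected log2 fold change was 1.98 (adjusted p = 0.0267). Trpm7, a channel kinase permeable to calcium and magnesium, was at 73.9 and 85.7 CPM in WT/AD against 265 and 208 CPM in cKO/AD (log2 fold change 1.57, SE 0.211, edgeR adjusted p = 0.00689). For Trpm7 the corrected log2 fold change was 0.75 (adjusted p = 0.0381). Stim2, a sensor of calcium in the endoplasmic reticulum, was at 75.2 and 99.4 CPM in WT/AD against 199 and 164 CPM in cKO/AD (log2 fold change 1.06, SE 0.218, edgeR adjusted p = 0.0167). For Stim2 the corrected log2 fold change was 0.87 (adjusted p = 0.04997). Of 4 forms of the correction, Canx passed in 4, and Trpm7 and Stim2 in 2 each. The other uncorrected rises included Mcu, the mitochondrial calcium uniporter gene, the exchanger gene Slc8a1, the pump gene Atp2b1 and the calmodulin gene Calm2, and the falls were Orai1, Trpm2, Calm3 and Cacna1a.

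Among 14 tested genes of the CALHM family and other large-pore channels, Calhm2 fell and Lrrc8a rose in both fits. Lrrc8a, the obligatory subunit of volume-regulated anion channels, was at 154 and 141 CPM in WT/AD against 801 and 321 CPM in cKO/AD (log2 fold change 1.93, SE 0.423, edgeR adjusted p = 0.0201). For Lrrc8a the corrected log2 fold change was 3.09 (adjusted p = 0.0298). Both cKO/AD libraries exceeded both WT/AD libraries by more than 2 times. Calhm1, Calhm3 and Calhm4 had too few counts to be tested. The median of this list was -0.24, or -0.07 with a member at 0 counts set to its bound. Of 23 genes of purinergic signalling 0 rose and 2 fell without GC correction (0% and 8.7%), and 0 and 0 with it. The share that fell was below the 10.2% of all genes tested, and 7.82% of all genes rose. The falls were Adora1 and P2ry6.

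The share of cytoskeleton genes that fell was above that of all genes before correction. Of 35 actin and microtubule genes 5 rose and 11 fell without GC correction (14.3% and 31.4%, against 7.82% and 10.2% of all genes tested), and 4 and 3 with it. In both fits 3 rose and 3 fell, 8.57% each against 2.44% and 1.92% of all genes. Actb, cytoplasmic beta-actin, was at 892 and 774 CPM in WT/AD against 112 and 145 CPM in cKO/AD (log2 fold change -2.696, SE 0.378, edgeR adjusted p = 0.00689). For Actb the corrected log2 fold change was -2.37 (adjusted p = 0.0208). Arhgdia, which keeps small GTPases inactive in the cytosol, was at 767 and 734 CPM in WT/AD against 61.5 and 139 CPM in cKO/AD (log2 fold change -2.902, SE 0.402, edgeR adjusted p = 0.00689). For Arhgdia the corrected log2 fold change was -0.901 (adjusted p = 0.0331). Rac1, the GTPase of membrane ruffles and phagocytic cups, was at 216 and 229 CPM in WT/AD against 74.998 and 125 CPM in cKO/AD (log2 fold change -1.15, SE 0.284, edgeR adjusted p = 0.02899). For Rac1 the corrected log2 fold change was -1.26 (adjusted p = 0.0323). That all 3 were lower in each cKO/AD library than in either WT/AD library follows from how they were taken.

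Was, an activator of branched actin in blood cells, went from 54.2 and 44.9 to 6.53 and 14.1 CPM (log2 fold change -2.26, adjusted p = 0.0108; corrected -1.13, adjusted p = 0.0473), Zyx, a focal adhesion protein, from 160.1 and 119.8 to 14.3 and 34.8 CPM (log2 fold change -2.51, adjusted p = 0.00868; corrected -1.22, adjusted p = 0.0272), and Tmsb4x, which binds actin monomers, from 807 and 800.1 to 444 and 342 CPM (log2 fold change -1.03, adjusted p = 0.0117; corrected -1.22, adjusted p = 0.02298). The rises in both fits were the motor gene Kif5b (134 and 175 to 599 and 441 CPM; log2 fold change 1.75, adjusted p = 0.00826; corrected 0.99, adjusted p = 0.0349), the Arp2/3 subunit gene Actr2 (139 and 186 to 849.7 and 408 CPM; log2 fold change 1.95, adjusted p = 0.0107; corrected 1.12, adjusted p = 0.0473) and the tubulin gene Tubb5 (303 and 318 to 2235 and 665 CPM; log2 fold change 2.22, adjusted p = 0.0221; corrected 2.81, adjusted p = 0.0361). In Tubb5 the first cKO/AD library was more than 3 times the second. Counts of actin, tubulin, thymosin and ribosomal protein genes are uncertain where reads are shared with processed copies.

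Ribosomal protein genes had no rise, and the share that fell was somewhat above that of all genes. Of 83 cytosolic ribosomal protein genes 0 rose and 12 fell without GC correction (0% and 14.5%, against 7.82% and 10.2% of all genes tested), and 0 and 4 with it. The median was -0.80 (-0.39 corrected), and 4 fell in both fits, 4.82% against 1.92% of all genes. Rpl10 was at 228 and 192 CPM in WT/AD against 109 and 94.3 CPM in cKO/AD (log2 fold change -1.05, adjusted p = 0.0161; corrected -1.16, adjusted p = 0.0327), Rpl32 at 34.5 and 29.4 CPM in WT/AD against 6.699 and 7.54 CPM in cKO/AD (log2 fold change -2.16, adjusted p = 0.0113; corrected -1.77, adjusted p = 0.0391), Rpl15 at 154 and 107 CPM in WT/AD against 57.9 and 64.5 CPM in cKO/AD (log2 fold change -1.09, adjusted p = 0.0163; corrected -1.71, adjusted p = 0.0211) and Rplp0 at 447 and 334 CPM in WT/AD against 130.4 and 148 CPM in cKO/AD (log2 fold change -1.49, adjusted p = 0.00722; corrected -0.83, adjusted p = 0.04905). The fall of Rplp0 is the one that turned in another form of the correction.

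Energy and lipid genes were mixed. Of 49 nuclear genes of oxidative phosphorylation 1 rose and 8 fell without GC correction (2.04% and 16.3%, against 7.82% and 10.2% of all genes tested), and 4 and 2 with it. The complex I subunit gene Ndufs1 rose in both fits (95.9 and 107 to 382 and 213 CPM; log2 fold change 1.56, adjusted p = 0.0112; corrected 1.11, adjusted p = 0.0478) and the complex II subunit gene Sdhc fell (66.6 and 61.1 to 28.8 and 32.1 CPM; log2 fold change -1.07, adjusted p = 0.0148; corrected -1.11, adjusted p = 0.0299). Of 10 mitochondrially encoded genes 1 rose and 1 fell without GC correction (10% and 10%), and 0 and 2 with it. The uncorrected rise was mt-Cytb, which did not pass in both fits, and the fall mt-Nd1 (4039 and 3248 to 2058 and 1608 CPM; log2 fold change -0.99, adjusted p = 0.0197; corrected -1.91, adjusted p = 0.01699), which did, while the mitochondrial share of counts was higher in the first cKO/AD library. Of 26 gene entries for glycolysis and lactate 1 rose and 7 fell without GC correction (3.85% and 26.9%), and 2 and 1 with it; Aldoa is entered under 2 identifiers. Hk2, a hexokinase, was at 30.6 and 31.4 CPM in WT/AD against 109.5 and 65.5 CPM in cKO/AD (log2 fold change 1.495, adjusted p = 0.0141; corrected 2.01, adjusted p = 0.0272), and Slc2a1, the glucose transporter GLUT1 and also a marker of brain endothelium, at 685 and 709 CPM in WT/AD against 127 and 288 CPM in cKO/AD (log2 fold change -1.75, adjusted p = 0.0154; corrected -0.98, adjusted p = 0.04005).

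Of 34 genes of cholesterol synthesis and lipid handling 5 rose and 6 fell without GC correction (14.7% and 17.6%, against 7.82% and 10.2% of all genes tested), and 2 and 0 with it. In both fits 2 rose. Abcg1, which exports cholesterol to lipoproteins, was at 467 and 511 CPM in WT/AD against 2687 and 1135 CPM in cKO/AD (log2 fold change 1.97, SE 0.396, edgeR adjusted p = 0.0154). For Abcg1 the corrected log2 fold change was 2.67 (adjusted p = 0.0295). Pmvk, an enzyme of the mevalonate pathway, was at 67.8 and 80.1 CPM in WT/AD against 172 and 174 CPM in cKO/AD (log2 fold change 1.22, SE 0.234, edgeR adjusted p = 0.0135). For Pmvk the corrected log2 fold change was 2.75 (adjusted p = 0.0206). In both genes each cKO/AD library was more than 2 times as high as each WT/AD library.

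Chromatin regulator genes rose more often than they fell. Of 52 chromatin regulators 17 rose and 5 fell, 32.7% and 9.62% against 7.82% and 10.2% of all genes, with a median of 0.53 (0.59 corrected). With GC content corrected 9 rose and 0 fell. In both fits 4 rose, 7.69% against 2.44% of all genes. Chd8, a remodeller that binds beta-catenin, was at 33.6 and 35.2 CPM in WT/AD against 232 and 112 CPM in cKO/AD (log2 fold change 2.32, SE 0.352, edgeR adjusted p = 0.00774). For Chd8 the corrected log2 fold change was 2.43 (adjusted p = 0.0236). Crebbp, a histone acetyltransferase, was at 140.0 and 157 CPM in WT/AD against 628 and 316 CPM in cKO/AD (log2 fold change 1.67, SE 0.325, edgeR adjusted p = 0.0141). For Crebbp the corrected log2 fold change was 2.17 (adjusted p = 0.0295). The histone demethylase genes Kdm5b (72.2 and 70.5 to 179 and 164 CPM; log2 fold change 1.27, adjusted p = 0.00689; corrected 1.09, adjusted p = 0.02397) and Kdm2a (170.5 and 168 to 432 and 369 CPM; log2 fold change 1.24, adjusted p = 0.00758; corrected 1.15, adjusted p = 0.02501) also rose. Uncorrected rises further included the Polycomb genes Ezh2, Eed and Suz12, and the falls were Chd7, Ezh1, Hdac5, Hdac7 and Smarca4.

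Of 40 splicing factor genes 9 rose and 1 fell without GC correction (22.5% and 2.5%, against 7.82% and 10.2% of all genes tested), and 4 and 2 with it. The median was 0.18 without correction and 0.01 with it, and 2 rose in both fits. Srsf10 was at 154 and 197 CPM in WT/AD against 799.9 and 577 CPM in cKO/AD (log2 fold change 1.97, adjusted p = 0.00642; corrected 1.22, adjusted p = 0.0224), and Srsf2 at 379 and 418 CPM in WT/AD against 3991 and 1129.6 CPM in cKO/AD (log2 fold change 2.68, adjusted p = 0.0145; corrected 2.92, adjusted p = 0.0316). Of 47 cell cycle genes 6 rose and 2 fell without GC correction (12.8% and 4.255%), and 4 and 0 with it. In both fits 4 rose, 8.51% against 2.44% of all genes; 2 of them, Hells and Ska3, are among the largest rises above. Cdk6, a kinase of the G1 phase, was at 79.3 and 73.6 CPM in WT/AD against 602 and 266 CPM in cKO/AD (log2 fold change 2.51, SE 0.384, edgeR adjusted p = 0.00807). For Cdk6 the corrected log2 fold change was 2.06 (adjusted p = 0.0272). Ccne2, a cyclin of the entry into S phase, was at 21.5 and 19.6 CPM in WT/AD against 148 and 86.3 CPM in cKO/AD (log2 fold change 2.51, SE 0.329, edgeR adjusted p = 0.00673). For Ccne2 the corrected log2 fold change was 1.53 (adjusted p = 0.0295). Of 47 proteasome genes 4 rose and 1 fell without GC correction (8.51% and 2.13%), and 4 and 1 with it. The activator gene Psme4 (44.1 and 47.9 to 171 and 163 CPM; log2 fold change 1.86, adjusted p = 0.00635; corrected 1.305, adjusted p = 0.0208) and the core subunit gene Psma3 (107 and 117 to 937 and 316 CPM; log2 fold change 2.48, adjusted p = 0.0131; corrected 1.65, adjusted p = 0.0473) rose in both fits.

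The 369 zinc finger protein genes were near the share of all genes, of which 37 rose and 33 fell without correction (10.03% and 8.94%), 8 and 9 with it, and 5 and 7 in both fits. Zfp263 rose (305 and 398 to 1089 and 857 CPM; log2 fold change 1.47, adjusted p = 0.00751; corrected 1.59, adjusted p = 0.0208), as did Zfp367 (6.91 and 6.81 to 76.4 and 28.2 CPM), while Zfp687 fell (82.5 and 75.1 to 4.26 and 9.28 CPM; log2 fold change -3.53, adjusted p = 0.00689; corrected -2.25, adjusted p = 0.0219), as did Zfp395 (17.6 and 14.3 to 0.681 and 2.14 CPM). Immediate-early genes, which also respond to tissue dissociation, had a share of falls above that of all genes. Of 34 tested 3 rose and 11 fell without GC correction (8.82% and 32.4%, against 7.82% and 10.2% of all genes tested), and 1 and 6 with it. In both fits 6 fell, 17.6% against 1.92% of all genes, and the list median was -0.81 (-0.03 corrected). Ier5 was at 239 and 203 CPM in WT/AD against 35.5 and 48.9 CPM in cKO/AD (log2 fold change -2.39, adjusted p = 0.00689; corrected -1.88, adjusted p = 0.0208). Egr3 was at 10.1 and 15.6 CPM in WT/AD against 2.33 and 1.29 CPM in cKO/AD (log2 fold change -2.83, adjusted p = 0.0112; corrected -2.41, adjusted p = 0.0421), and Fosb had no count in either cKO/AD library against 6.72 and 3.01 CPM in WT/AD (edgeR adjusted p = 0.00869; 0.0272 corrected). The other 3 were Klf2, above, and Zfp36 and Zfp36l1, genes of proteins that destabilise messenger RNA; Zfp36l1 went from 144 and 164 to 76.9 and 82.04 CPM (log2 fold change -0.96, adjusted p = 0.0144; corrected -0.95, adjusted p = 0.0295).

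**Figure D4:**
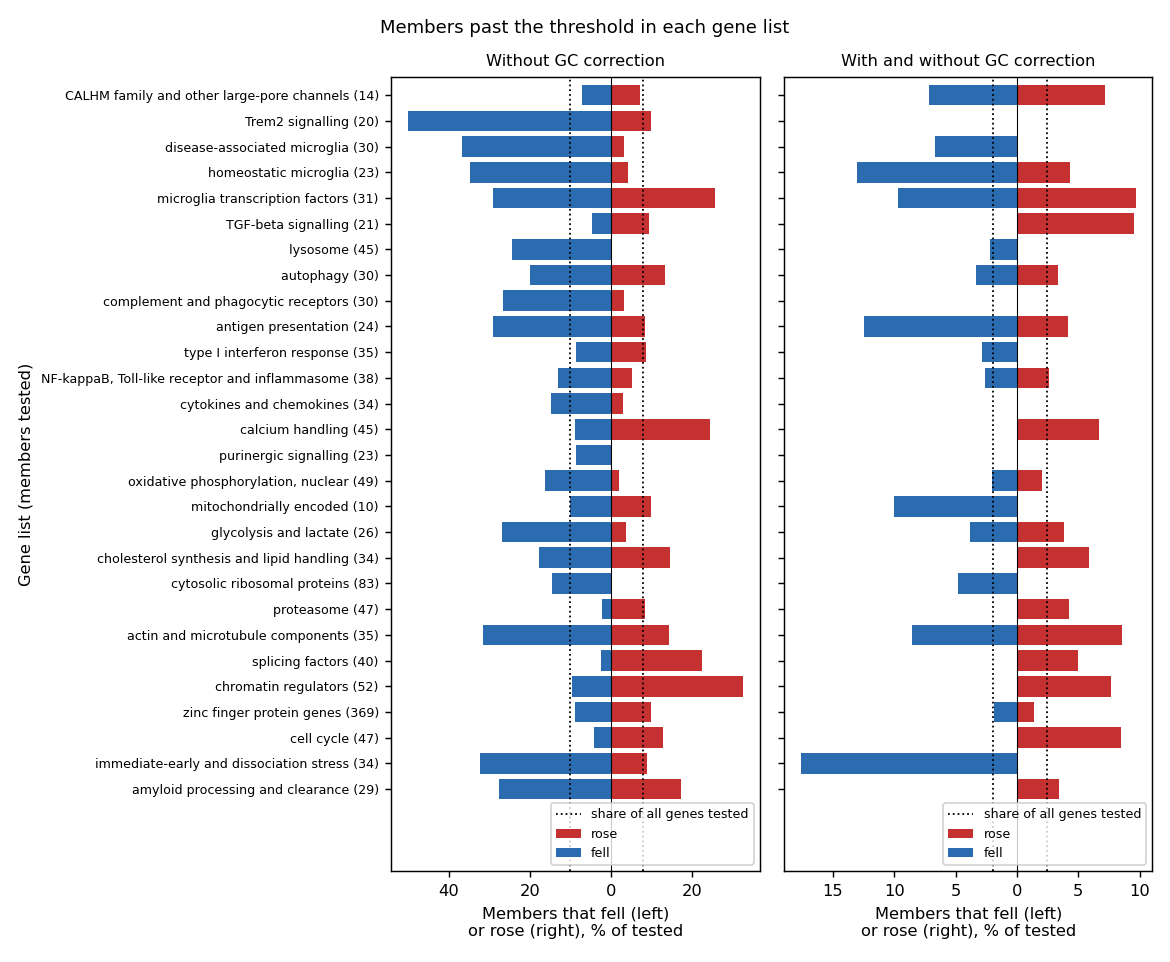
Share of the tested members of gene lists (%, x axis) that fell (left) or rose (right), without GC correction and in both fits; dotted lines give the share of all genes tested. Chromatin regulators rose in 32.7% of tested members without correction, and no list shown exceeds 20% in either direction in both fits.

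Markers of other brain and blood cells are given here because they could move with the microglial genes in a bulk sample, in which fewer cells of a type and less RNA per cell cannot be told apart. The 14 endothelial markers summed to 1272 and 1280.2 CPM in WT/AD and 610.3 and 678 CPM in cKO/AD, and to 1148 and 1159.6 against 728 and 714 GC-corrected CPM. Ly6c1 was at 72.7 and 61.2 CPM in WT/AD against 20.9 and 17.4 CPM in cKO/AD (log2 fold change -1.81, adjusted p = 0.007695; corrected -1.69, adjusted p = 0.0272), and it fell in both fits with Slc2a1. The 12 mural and fibroblast markers summed to 555 and 617 against 304 and 524 CPM, and Acta2, smooth muscle actin, fell in both fits (66.2 and 77.5 to 21.9 and 20.1 CPM; log2 fold change -1.78, adjusted p = 0.00642; corrected -1.67, adjusted p = 0.0208). The WT/AD libraries were above both cKO/AD libraries in these sums.

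The 13 oligodendrocyte markers went the other way in sum, 5880 and 6633 CPM in WT/AD against 11788 and 9359 CPM in cKO/AD. Single markers were split: 4 rose and 5 fell without GC correction (30.8% and 38.5%, against 7.82% and 10.2% of all genes tested). Mal rose in both fits (308 and 359 to 1045 and 619.7 CPM; log2 fold change 1.32, adjusted p = 0.0192; corrected 1.35, adjusted p = 0.0447), and Mbp (1332 and 1178 to 107 and 362 CPM; log2 fold change -2.42, adjusted p = 0.0167; corrected -2.18, adjusted p = 0.0295) and Opalin (23.9 and 21.3 to 6.76 and 10.3 CPM; log2 fold change -1.399, adjusted p = 0.0326; corrected -1.59, adjusted p = 0.0412), also myelin genes, fell.

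The summed level of the 15 microglia markers, 51662 and 48699 against 21939 and 30206 CPM, was 38359 and 39634 against 35806 and 35849 after GC correction. Without correction 7 of them fell (46.7%, against 10.2% of all genes tested). In both fits 2 of them, Csf1r and Cx3cr1, fell (13.3%, against 1.92%). The 13 astrocyte markers summed to 1512 and 1669.7 CPM in WT/AD and 1322 and 1386 CPM in cKO/AD, with 1 fall, Clu, and none in both fits. The 16 neuron markers summed to 2564 and 2431 against 2756 and 2549 CPM; Slc17a7, a vesicular glutamate transporter, fell in both fits (100.02 and 73.01 to 7.61 and 11.2 CPM; log2 fold change -3.202, adjusted p = 0.00635; corrected -1.44, adjusted p = 0.0259). The 9 oligodendrocyte precursor markers summed to 489 and 466 against 173 and 271 CPM, and to 347 and 357 against 298 and 313 after GC correction.

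Markers of blood and border cells were well below those of microglia. The 12 neutrophil markers summed to 1081 and 1085 against 996 and 1089 CPM, with S100a9 falling in both fits (53.5 and 46.9 to 28.95 and 21.6 CPM; log2 fold change -0.99, adjusted p = 0.03198; corrected -1.44, adjusted p = 0.0283). The 13 monocyte and border macrophage markers summed to 242 and 268 against 361 and 379 CPM, with 1 rise, Ms4a4c. The 12 lymphocyte markers summed to 215 and 239.6 against 154 and 219.97 CPM and none passed, with Cd3d at 0 in WT/AD and Klrb1c, Cd3e and Cd8a at 0 in cKO/AD. The 9 choroid plexus markers summed to 72.9 and 77.8 against 52.7 and 38.5 CPM, with Ttr falling in both fits (31.6 and 30.1 to 14.02 and 8.97 CPM; log2 fold change -1.42, adjusted p = 0.0245; corrected -1.73, adjusted p = 0.03305) and Tmem212 at 0 in cKO/AD, and the 6 erythrocyte markers to 14.9 and 9.70 against 6.30 and 5.84 CPM, with Hbb-bt at 0 in WT/AD and Hba-a2 at 0 in cKO/AD. In CPM, the sums of the neuron, neutrophil and lymphocyte lists overlapped between the groups and those of the other lists did not. In GC-corrected CPM the astrocyte sums (1374 and 1504 against 1838 and 1469) and erythrocyte sums overlapped, while the lymphocyte sums (190 and 211 against 223 and 237), neuron sums (2386 and 2263 against 3135 and 2535) and neutrophil sums (1035 and 1013 against 1237 and 1103) stood apart with cKO/AD higher. Without AD, the log2 fold changes of cKO over WT were -1.84 for Ly6c1, -1.61 for Acta2 and -1.67 for Ttr, none past the threshold (adjusted p = 0.1995, 0.1995 and 0.396). The part of these cells in the results on microglial genes was not tested.

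**Figure D5:**
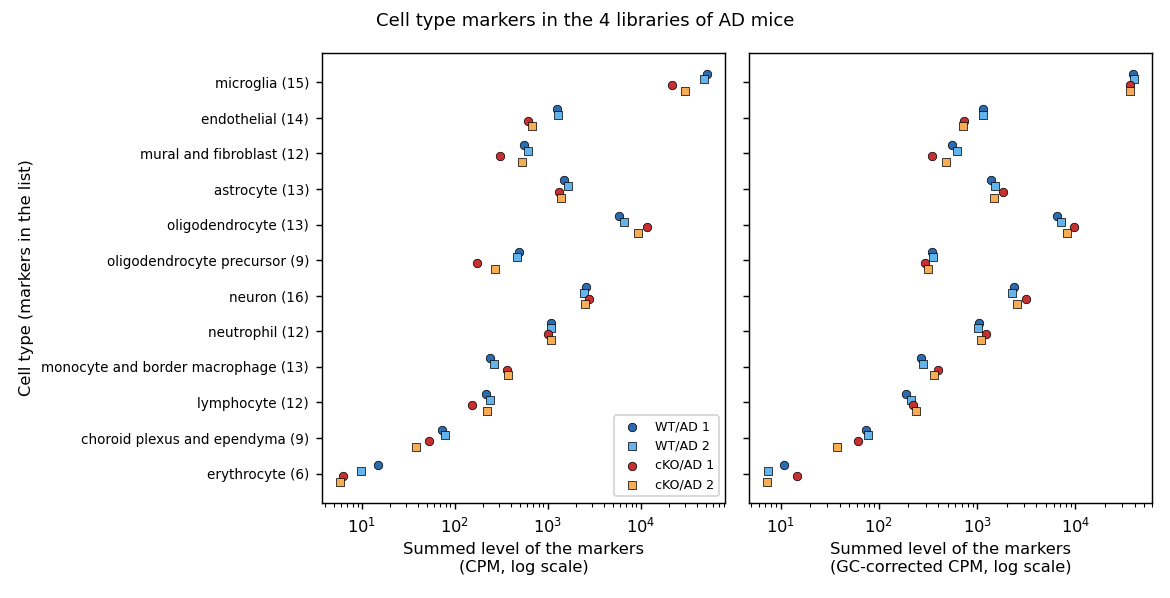
Summed level of the markers of 12 cell types (log axis), as CPM and as GC-corrected CPM, with 1 point for each of the 4 libraries of AD mice. Microglia markers lie at 21939 to 51662 CPM, above every other list; the microglia sums of the 2 groups stand apart in CPM and close together after GC correction.

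Whether the deletion acted differently with and without AD was tested as the difference between the 2 deletion effects. By edgeR 6 of 22089 genes (0.0272%) passed without correction, and 5 (0.0226%) with GC content corrected. Only the predicted genes Gm10800 and Gm10801 passed both ways. Ets1 was at 306 and 302 CPM in WT and at 152 and 155 CPM in cKO. In mice with AD it was at 103 and 139 CPM in WT/AD against 347 and 379.7 CPM in cKO/AD. The deletion effect was -0.99 on the log2 scale without AD (adjusted p = 0.391 by itself) and 1.58 with AD, a difference of 2.57 (interaction adjusted p = 0.05003, and 0.0371 with GC content corrected). Cnpy1, which encodes a chaperone-like protein of the canopy family, was at 249.99 and 274 CPM in WT and 364 and 413 CPM in cKO. In mice with AD it was at 379 and 429 CPM in WT/AD against 159.7 and 148 CPM in cKO/AD; the difference was -1.96 (adjusted p = 0.051; 0.0371 corrected). In both genes the 2 libraries of each group lay closer to each other than to those of the group they were compared with, and the direction turned between the 2 backgrounds.

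Slc25a22, a mitochondrial glutamate carrier gene, was at 103 and 104 CPM in WT and 86.3 and 121 CPM in cKO. In mice with AD it was at 262 and 219 CPM in WT/AD against 13.8 and 19.5 CPM in cKO/AD; the difference was -3.85 (adjusted p = 0.0331; 0.0664 corrected). Hps6 was at 13.4 and 19.1 CPM in WT and 9.76 and 12.02 CPM in cKO, against at most 1 count per library in cKO/AD (adjusted p = 0.0371; 0.0664 corrected). The difference was near the threshold in both genes on either scale. For Calhm2 itself the difference did not pass (interaction adjusted p = 0.196; 0.449 corrected). DESeq2 called 2763 such genes and limma-voom 684. By edgeR more such genes passed when either cKO/AD library was left out, which takes the group of widest spread out of the estimate. More also passed without cKO replicate 1, and fewer with any other library left out. The genes of this comparison were chosen after their values were seen.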

How the data were processed

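Reads from 8 libraries of isolated mouse microglia were counted per gene by the authors, who deposited 1 table of whole-number counts, not normalised, for 55421 genes. Per the labels' protocols, Trizol was used for extraction and an Illumina TruSeq RNA kit for library construction. Per the submitters' processing notes the genome build was mm9; the sources used here give no aligner, counting tool or strand setting, and reads of genes that overlap, also on opposite strands, can therefore not be separated. Groups and replicate numbers were taken from the sample labels; 1 column name lacks the suffix of its sample's title, and the design text spells the WT/AD group in another way.

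Counts were fitted with edgeR 4.0.16 in R 4.3.3 (glmQLFit and glmQLFTest, two-sided) on all 8 libraries in a group means model with 4 residual degrees of freedom, after filterByExpr by group (22089 genes) and TMM scaling; the edgeR adjusted p is Benjamini-Hochberg over all tested genes and the threshold is 0.05. To correct for GC content, the difference between a library's log2 CPM and the mean of all libraries was smoothed against transcript GC content by loess (span 0.4), using genes with a mean log2 CPM over 2, and the fitted curve entered the model as an offset. GC content came from GENCODE M21, matched by identifier for 54587 genes with version and 55154 with or without it; 99.87% of tested genes had a value. CPM are over TMM-scaled library sizes. Floors are 3 counts over a group, set against uncorrected CPM, and intervals cover counting error only.

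The members, the 41 gene lists (29 of programmes, 12 of cell type markers) and the tests were chosen with earlier results of these data known. Named genes are Calhm2; the 12 largest rises and falls of both fits at 5 CPM or more, without predicted or clone names; up to 4 members of each list that passed in both fits; and a fixed set of disease genes. Bhlhe41, Irf5, Tmsb4x, Tubb5 and Zfp36l1 were added after their values were seen, as were the genes named without values. Alternatives were DESeq2 1.42.0, limma-voom (limma 3.58.1) with and without a weight per group, other scalings and filters, the 4 libraries alone, a replicate block, 3 other GC corrections (GC in 50 bins, GC with length, and mean GC over transcripts, the last chosen after seeing the data), a minimum change of 2-fold and the omission of each library. The scripts were tested on simulated data with the same spread in every group and the fitted GC curves built in. Such data cannot show how reliable the calls are at the wider spread of the cKO/AD libraries. Some gene and list results are not reported here. The replicate numbers were not taken as pairs.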

Additional observations from a re-analysis of the deposited data

Results flagged for a closer look

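In 9 genes the deletion effect differed between mice with and without AD by the interaction test (edgeR, adjusted p of 0.05, with or without GC correction). Only Gm10800 and Gm10801 passed both with and without it, and Gm10801 had 1 and 0 counts in the WT/AD libraries. The other genes passed in a single fit. Values are log2 differences of the 2 deletion effects without correction. Gm10800 and Gm10801 stood at 12.6 and 12.3; they are predicted genes whose reads may be shared between copies, and the levels of Gm10800 were 847 and 654 CPM in WT, 29.9 and 54.1 in cKO, 0.358 and 0.515 CPM in WT/AD and 178 and 126 CPM in cKO/AD. Ets1 stood at 2.57 and Cnpy1 at -1.96, Slc25a22 at -3.85 and Hps6 at -8.78. Grin2c, which encodes a subunit of NMDA receptors, stood at -4.47 (-2.31 and adjusted p = 0.124 corrected), with 102 and 78.2 CPM in WT/AD and 5.73 and 5.17 CPM in cKO/AD. Gm21887 stood at -3.58 (adjusted p = 0.0331; -1.39 and 0.181 corrected). Cavin1, a caveolar coat gene, stood at 1.64 (adjusted p = 0.0577; 2.94 and 0.0371 corrected), with 928 and 1102 CPM in WT, 188 and 192 CPM after deletion alone, 281 and 318 CPM in WT/AD and 146 and 203 CPM in cKO/AD. The 14 endothelial markers summed to 2022 and 2054 CPM in WT, 731 and 773 CPM after deletion alone, 1272 and 1280.2 CPM in WT/AD and 610.3 and 678 CPM in cKO/AD; their part in the values of Cavin1 was not tested.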

How the results depend on the processing

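Depth was not varied. Counts of rises and falls stayed within 1.5 times of the reported ones with limma-voom, DESeq2 size factors, no TMM, either filter and the replicate block, except as follows. DESeq2 called 2919 and 3517 (1405 and 1258 in both fits, 2763 interactions). Voom with group weights called 1297 and 1037 (458 and 50 in both fits), 903 interactions, and Calhm2 at -2.94 (adjusted p = 0.0903). No filter gave 1041 and 1120 in both fits and 2670 interactions, the stricter filter 559, voom 684, DESeq2 size factors 20 and no TMM 24. The 4 libraries alone gave 0 and 0, and Calhm2 at -2.88 (adjusted p = 0.104). GC correction gave 813 and 498, with the replicate block 700.0 and 384 (3 interactions, Calhm2 -2.35), in bins 695 and 605, with length 816 and 511 (2 interactions, Calhm2 -2.14) and on mean GC 849 and 506 (4 interactions, Calhm2 -2.22). A 2-fold minimum gave 135 and 402, and 2 interactions. Over the 6 pairs of groups, the deviations of same-numbered libraries correlated at -0.121 to 0.215 (-0.027 to 0.139 with GC content corrected), with WT/AD and cKO/AD at -0.067 (0.013) and cKO and cKO/AD at 0.215 (0.139), so not over 0.1 in every pair. The replicate block without GC correction gave 1513 and 2086 (466 and 322 in both fits) and 1 interaction. Of its calls 3431 were among the 3980, and of those in both fits 730 were among the 964. In the ranges that follow, the upper ends of the counts are from the fit without cKO/AD replicate 2. There the group of widest spread adds nothing to the estimated spread, so these upper ends are no measure of a stronger effect. Leaving out each library gave 1 to 3906 rises and 1 to 6286 falls, 0 to 2493 and 0 to 3813 in both fits, 1 to 7884 interactions, and Calhm2 from -3.24 to -2.60, not past the threshold without either WT/AD library.

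Signs turned with GC correction by loess, loess with block, bins, GC with length and mean GC, in that order: Apoe 1.29, 1.25, 1.16, 1.08 and 1.31; P2ry12 -0.37, -0.38, -0.44, -0.25 and -0.34; Adgrb2 0.95, 0.94, 0.76, 0.98 and 0.82; Arf6 1.19, 1.16, 0.98, 1.04 and 1.21; Ptprn 0.98, 0.97, 0.86, 1.14 and 0.91; Cavin1 0.75, 0.74, 0.57, 0.91 and 1.31. Tmem119 was at 0.11, 0.098, 0.21 and 0.40 in all but bins, and Rplp0 at 0.21 on mean GC. The cause was not tested.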
